A study of Mus musculus with 4 samples.

Results

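The cells described here are 2-cell-like embryonic stem cells, a small fraction of a mouse embryonic stem cell (mESC) culture. They were selected on their own counts, as barcodes of the mESC matrix with at least 1000 unique molecular identifiers (UMIs, each standing for 1 captured RNA molecule), at most 20% mitochondrial UMIs, and at least 3 UMIs summed over Zscan4c, Zscan4d, Zscan4f, Zfp352, Tcstv1, Tcstv3, Tmem92, and Usp17lc. The rule took 78 of the 2137 mESC cells that passed the same cell filter, and 6497 cells of the whole series passed that filter. Their share was 3.65%, with an exact binomial 95% interval of 2.90% to 4.53%.

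RNA was read out in single cells of the mouse lines N2a, NIH/3T3, and mESC in 1 library made with CapSeq, a method that encloses single cells in capsules and labels their RNA by split-pool barcoding. The mESCs were of the E14TG2a line, grown on gelatin with 15% serum, leukemia inhibitory factor, 3 μM CHIR99021, an inhibitor of GSK3, and 1 μM PD0325901, an inhibitor of MEK. N2a is a neuroblastoma line and NIH/3T3 an embryonic fibroblast line. Both groups compared below, the 78 cells and the 1989 mESC cells with 0 UMIs of the 8 genes, came from the same culture and the same library, so no test was possible and no p-value is given, and all intervals cover counting error only.

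In the mouse embryo, the major wave of zygotic gene activation takes place at the 2-cell stage. It includes the Zscan4 cluster and many genes that start in the long terminal repeats of the MERVL endogenous retrovirus, which the transcription factor DUX binds. In cultures of mouse embryonic stem cells, a few cells enter a similar state for a short time and leave it again. ZSCAN4 proteins are zinc finger proteins with a SCAN domain and are known for their part in telomere lengthening in these cells.

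Some of the most strongly elevated genes lie behind nearly the same sequence, so the 250 bases before the start of 5 genes are shown first. They were read from GRCm39, 5′ to 3′ on the strand of the gene, at the start of the Ensembl canonical transcript. Capitals mark GATTNAATC, the core of the sequence bound by DUX (searched on both strands), and TATAAA. Gm21761 on chr13:120390809-120391058 (minus strand) had the largest log2 ratio of CPM + 1 among the tested genes, which leave out the 8 of the rule. Gm12724 lies on chr4:106098163-106098412 (plus strand), Platr31 on chr6:127077010-127077259 (plus strand), and Eif4a3l1 on chr6:136304287-136304536 (plus strand). Zscan4d on chr7:10900087-10900336 (minus strand) is shown as a gene of the rule without this sequence.
Gm21761: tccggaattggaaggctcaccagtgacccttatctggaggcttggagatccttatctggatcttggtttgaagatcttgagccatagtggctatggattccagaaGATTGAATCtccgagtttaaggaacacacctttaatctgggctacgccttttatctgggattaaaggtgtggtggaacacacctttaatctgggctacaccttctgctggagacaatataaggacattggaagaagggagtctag
Gm12724: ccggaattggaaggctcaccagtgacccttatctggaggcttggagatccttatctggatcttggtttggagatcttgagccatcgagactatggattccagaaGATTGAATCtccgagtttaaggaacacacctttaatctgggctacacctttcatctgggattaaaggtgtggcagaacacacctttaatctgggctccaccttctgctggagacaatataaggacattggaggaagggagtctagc
Platr31: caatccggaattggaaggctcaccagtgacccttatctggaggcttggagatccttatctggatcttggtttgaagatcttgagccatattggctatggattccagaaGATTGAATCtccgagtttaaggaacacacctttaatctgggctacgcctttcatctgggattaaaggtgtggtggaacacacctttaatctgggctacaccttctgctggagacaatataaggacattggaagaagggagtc
Eif4a3l1: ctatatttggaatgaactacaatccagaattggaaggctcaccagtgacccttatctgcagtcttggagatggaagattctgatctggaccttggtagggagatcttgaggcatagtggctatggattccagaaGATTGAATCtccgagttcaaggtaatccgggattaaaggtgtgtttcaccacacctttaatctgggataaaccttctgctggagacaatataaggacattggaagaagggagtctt
Zscan4d: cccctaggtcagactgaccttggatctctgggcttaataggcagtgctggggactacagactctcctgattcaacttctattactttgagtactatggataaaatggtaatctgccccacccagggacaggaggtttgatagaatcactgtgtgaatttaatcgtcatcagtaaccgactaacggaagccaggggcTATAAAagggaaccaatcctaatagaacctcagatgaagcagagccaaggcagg
The DUX core stands from -145 to -137 before Gm21761, from -146 to -138 before Gm12724, from -142 to -134 before Platr31, and from -116 to -108 before Eif4a3l1, where -1 is the base next to the start. The window of Zscan4d holds TATAAA from -54 to -49 and no DUX core.

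The 8 genes chosen for the rule were seen in the 78 cells at unequal levels, which are given as a description because they chose the cells. Zscan4d had 205 UMIs (548.1 CPM, counts per 1000000 UMIs of the group) in 60 of the 78 cells, with 0 to 13 per cell and a median of 2. Zscan4c had 171 UMIs (457.2 CPM) in 59 cells, with at most 10 per cell. Usp17lc, a deubiquitinase gene of the Usp17 family, had 149 UMIs (398.4 CPM) in 41 cells. Tmem92, which encodes a transmembrane protein, had 111 UMIs (296.8 CPM) in 48 cells. The remaining genes were rarer, with 42 UMIs of Zfp352, a zinc finger gene, in 18 cells, 40 UMIs of Tcstv3 in 20 cells, and 24 UMIs of Zscan4f in 17 cells. Tcstv1 had 0 UMIs in the 78 cells, which allows up to 3 UMIs, so in practice the rule rested on the other 7 genes. The canonical transcript of Zscan4c is 97.1% identical to that of Zscan4d over 2278 aligned bases and 97.4% identical to that of Zscan4f over 2277. How reads shared by such copies were counted is not given in the sources used here, so the division of UMIs among them is uncertain.

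**Figure D1:**
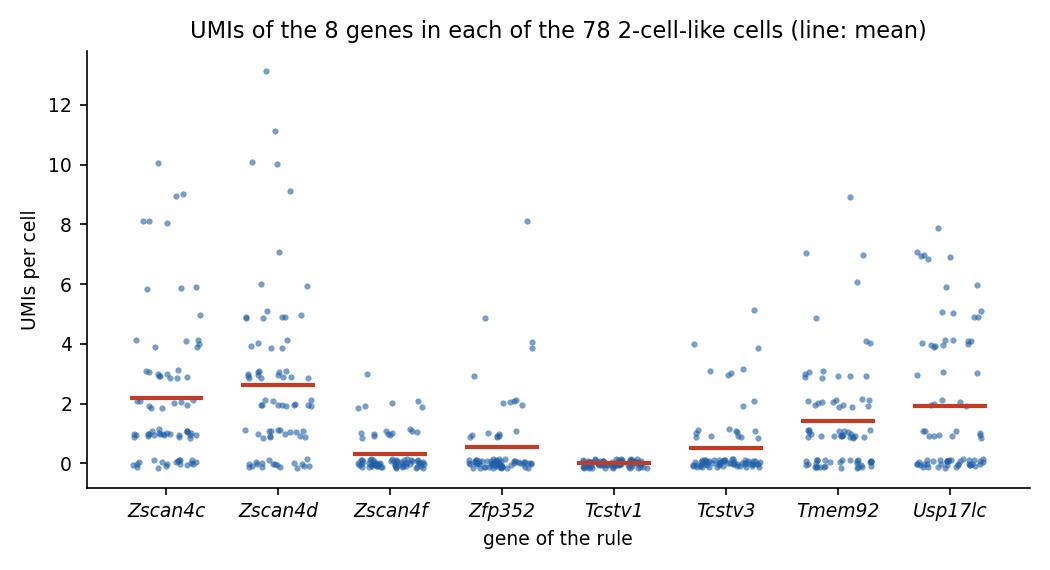
UMIs per cell (vertical axis) of each of the 8 genes (horizontal axis) in the 78 2-cell-like cells, 1 point per cell, shifted slightly at random in both directions to separate points, with a red line at the mean. Zscan4c, Zscan4d, Tmem92, and Usp17lc carry most of the UMIs, and Tcstv1 is at 0 in every cell.

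A single cell held 3 to 37 UMIs of the 8 genes, with a median of 8.5, and 1 to 6 of the genes, with a median of 3. These UMIs made up 0.0224% to 1.56% of the UMIs of the cell. Cells with both a Zscan4 gene and another gene of the rule were the most common, with 61 cells, while 10 cells had Zscan4 UMIs only and 7 had UMIs of the other genes only. At least 2 of the genes were seen in 73 cells. Close to the threshold, 12 cells were just inside with 3 UMIs and 21 mESC cells were just outside with 2.

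The same genes were rarely detected in the other lines. Of 2323 N2a cells under the same filter, 0 had a UMI of the 8 genes, which allows a share of cells with such a UMI of up to 0.129% (3 counts of the total), at a median depth of 6185 UMIs. Of 2037 NIH/3T3 cells, 4 had 1 UMI or more, and 0 reached 3 UMIs, which allows up to 0.147%, at a median depth of 4863 UMIs. In the mESC matrix 148 of 2137 cells had a UMI (6.93%) at a median depth of 4803 UMIs, and the 78 cells held 742 of the 833 UMIs (89.1%). The matrices of the lines shared 0 barcodes with UMIs. The split of reads into lines by the first-round barcode fixed this in advance, so it checks nothing. Within the mESC plate positions, cells of this kind were found at 30 of the 32 first-round barcodes, with 0 to 7 per barcode and a median of 2.

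The 78 cells were shallower than the rest of the culture, although a rule on 3 UMIs favours deep cells. They held 1134 to 30118 UMIs per cell with a median of 3881, against 1003 to 30509 with a median of 4800 in the 1989 cells with 0 UMIs of the 8 genes. The median number of genes per cell was 1944.5 against 2605. After each cell was thinned to 1000 UMIs the medians were 758 and 811 genes. The mitochondrial share had a median of 2.94% in the 78 cells and 2.00% in the cells with 0 UMIs, and the ranges overlapped, from 1.07% to 8.41% and from 0% to 19.5%. UMIs of ribosomal protein genes made up 7.64% and 8.02% of the summed UMIs. The part of these differences in the results below was not tested, and some values below are also given for cells with at least 4000 UMIs or for comparison cells of matched depth. In total the 78 cells held 374003 UMIs and the comparison cells 11501236, so 1 UMI is worth far more in the smaller group and genes below about 50 CPM there rest on 20 UMIs or fewer.

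Labels of other lineages and lines were checked with markers. Among pluripotency genes, Nanog stood at 521.4 CPM in the 78 cells and 565.0 CPM in the comparison cells, and Pou5f1 at 56.1 and 57.3 CPM. Nanog was seen in 42 of the 78 cells and 83.3% of the comparison cells. The other markers stood lower in the 78 cells, with Zfp42 at 844.9 against 1333 CPM, Dppa5a at 1281 against 1841 CPM, and Esrrb at 163.1 against 364.0 CPM. Sox2 had 0 UMIs in both groups, so it checks nothing here. Markers of N2a were at or near 0, with 0 UMIs of Hand2 and Syt6 and 1 UMI of Gata3. The 12 genes of the N2a list summed to 88.2 CPM in the 78 cells and 120.5 CPM in the comparison cells, with Ddc as the most abundant. Of the NIH/3T3 markers, Col1a2, Cav1, and Prrx1 had 0 UMIs and Col1a1 had 1. The 12 genes of that list summed to 660.4 and 841.8 CPM, mostly of Fn1, and 0 of the 3 measured were past 2-fold. Primitive endoderm markers Gata6, Gata4, and Pdgfra had 0 UMIs, and stood at 1.30, 2.09, and 1.39 CPM in the comparison cells. Sox17 had 2 UMIs (5.35 against 0.26 CPM) and Dab2 had 2 (5.35 against 3.48 CPM). Of the trophectoderm markers, Cdx2, Eomes, and Elf5 had 0 UMIs, Krt8 had 2, and Krt18 had 1.

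Levels of the other genes were then compared. A gene counted as tested when the mean of its levels in both groups was at least 50 CPM and it was not one of the 8, which left 4405 genes. A gene counted as past 2-fold when the log2 ratio of CPM + 1 was at least 1 in size. Of the 4405 genes, 331 were past 2-fold higher (7.51%) and 248 past 2-fold lower (5.63%), and the median log2 ratio was -0.19. Higher genes made up 57.2% of the genes past 2-fold, but 41.1% when levels were averaged over cells instead of summed, with 418 higher and 600 lower. Of all 4405, 121 genes (2.75%) were higher by at least 16-fold and 3 were lower by at least 4-fold. The 121 genes comprised 82 protein coding genes, 37 long non-coding RNAs (lncRNAs), and 2 genes with no entry in the annotation used for positions, and they took up 5.26% of the UMIs of the 78 cells and 0.0819% of those of the comparison cells. All lncRNA genes together made up 3.54% and 2.03% of the UMIs, and 94 of the 4405 tested genes were lncRNAs. Because cells were chosen by genes that belong to the same program, these counts describe the cells and are no evidence of their own.

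**Figure D2:**
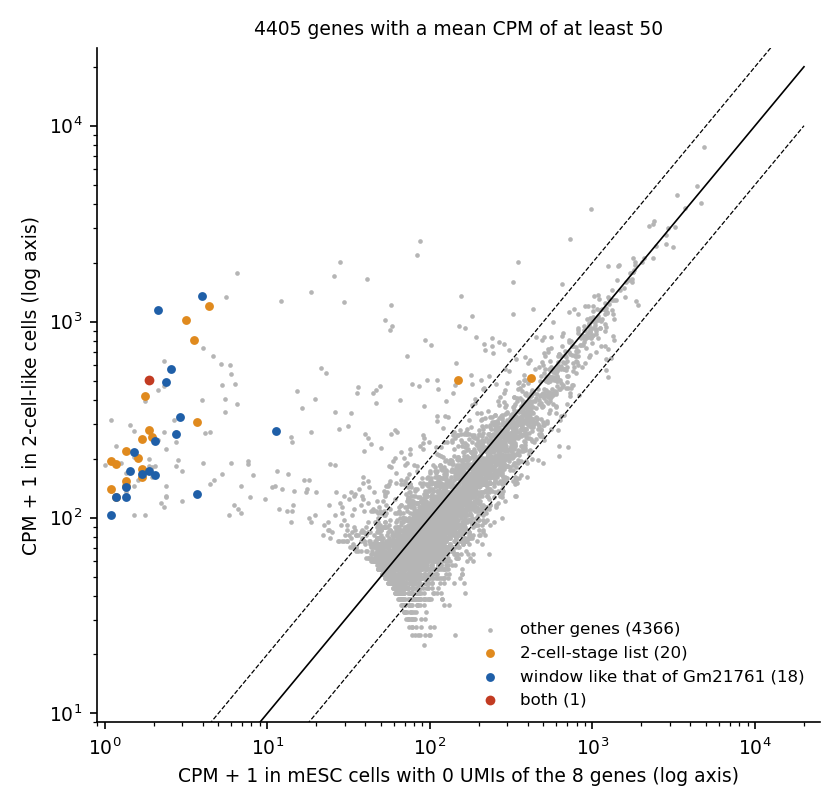
CPM + 1 in the 2-cell-like cells (vertical axis) against CPM + 1 in mESC cells with 0 UMIs of the 8 genes (horizontal axis), both on log axes, with 1 point for each of the 4405 tested genes. The solid line marks equal levels and the dashed lines 2-fold, and genes of the 2-cell-stage list (orange), genes with a window like that of Gm21761 (blue), and the 1 gene in both sets (red) lie above the upper dashed line, except Calcoco2.

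The largest log2 ratio of CPM + 1 was the 9.07 of Gm21761, a protein coding gene on chromosome 13, with 428 UMIs in the 78 cells and 13 in the 1989. Its level was 1144 CPM against 1.13 CPM, a ratio of 1012 with a counting interval of 586 to 1917. It was seen in 65 of the 78 cells, at 0 to 22 UMIs per cell with a median of 4, and in 11 comparison cells. In cells with at least 4000 UMIs its log2 ratio was 8.30 and that of Gm12724 was 8.34, and with comparison cells of matched depth they were 8.50 and 9.02, so which of them came first depended on the cells used. Gm20767, a copy of Gm21761 that is 98.0% identical in its transcript, had 187 UMIs in 62 of the 78 cells and 10 UMIs in the 1989 cells. The transcript of Gm21761 is also 92.8% identical to that of Tcstv1 over 884 aligned bases, and 90.7% to that of Tcstv3 over 885. Both are genes of the rule, so Gm21761 is not independent of it. The division of UMIs among these copies is uncertain. The lncRNA with the most UMIs among the 15 largest ratios, 5430402O13Rik, stood at 1762 against 5.48 CPM and was seen in 68 of the 78 cells. Gm12724, another lncRNA, had 508 UMIs in 56 of the 78 cells and 34 UMIs in the 1989 cells, or 1358 against 2.96 CPM.

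Several of these genes belong to families. The Eif1ad genes encode proteins with a domain like that of translation initiation factor eIF1A. Eif1ad8 stood at 1201 against 3.39 CPM (ratio 354, counting interval 255 to 505) and was seen in 72 of the 78 cells, with a median of 4 UMIs and at most 41. Eif1ad15 stood at 1024 against 2.17 CPM, Eif1ad7 at 807.5 against 2.52 CPM, and Eif1ad3 at 414.4 against 0.78 CPM. Transcripts of Eif1ad15 and Eif1ad8 are 93.4% identical over 1872 aligned bases, so here too the division of UMIs is uncertain. Eif4a3l1, a copy of the helicase gene Eif4a3, stood at 492.0 against 1.39 CPM. Genes with known roles in other tissues were also among the 15. Chrm3, the M3 muscarinic acetylcholine receptor, stood at 1337 against 4.61 CPM with up to 40 UMIs in a cell (log2 ratio 7.90, and 9.00 with comparison cells of matched depth), and Abcb5, an ABC transporter, at 393.0 against 0.78 CPM. The remaining genes of the 15 were Speer4cos, Gm21847, Gm28376, and Gm21818, all between 315.5 and 628.3 CPM in the 78 cells and at 1.57 CPM or less in the comparison cells. Speer4cos had 1 UMI in the comparison cells, so its plain ratio of 3629, above that of Gm21761, has a counting interval of 639 to 144525. Over the 6 alternatives computed for them, the lowest log2 ratio of the 15 genes was 6.90. These 6 all kept the 1 CPM that is added to both levels. With 10 CPM added instead, the number of genes higher by at least 16-fold fell from 121 to 77, so ratios of genes near 0 in the comparison cells depend on this choice.

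The strongest genes were partly neighbours. Of the 121 genes higher by at least 16-fold, 20 lay in 4 runs of at least 3 such genes with gaps of at most 1 Mb. No share over all tested genes stands beside this count. The run at chr12:87524918-88290796 held 7 Eif1ad genes. At chr7:10633618-11348039 lay Zscan4b, Zscan4e, and 3 genes with names of Zscan4 pseudogenes that the annotation lists as protein coding, in the cluster that also holds the 3 Zscan4 genes of the rule. The run at chr13:120373570-120635424 held Gm21761, B020031M17Rik, Gm20767, and Gm21818, and lies between Tcstv1 and Tcstv3. The run at chr5:14564932-15919595 held Pclo, Gm21847, Gm30613, and Speer4cos. The other 101 genes include the 2 without a position. Of the 121 genes, 13 lay on chromosome 13 and 12 on chromosome 12, which held 191 and 174 of the 4405 tested genes.

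The sequence shown before Gm21761 recurred among the strongest genes and was rare over all genes. The 300 bases around the start (250 before and 50 after) of the canonical transcript were taken for 32953 genes of GENCODE M39, and 135 of these windows (0.410%) aligned on the same strand to the 250 bases before Gm21761 with an E-value of at most 1e-10. Among tested genes 19 had such a window, Gm21761 itself included, and all 19 were higher by at least 16-fold, where 2.75% of all tested genes were. They stood at 0.0869 to 10.3 CPM in the comparison cells, so they reached the mean of 50 CPM only through the 78 cells, and the level filter fixed their direction. They were 19 of the 119 genes of that class with a window. Of 210 genes higher by 2- to 16-fold, 248 lower genes, and 3824 genes in between, 0 had one. The 19 genes lie on 9 chromosomes, and 15 are lncRNAs. Their windows were 74.5% to 100% identical to that of Gm21761 over the aligned bases, with a median of 98.7%. The set was also defined from the gene with the largest log2 ratio, so the counts are a description.

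Of the 135 genes, 82 had a UMI in either group, 76 of them in the 78 cells and 64 in the comparison cells. Together the 135 genes summed to 7949 CPM in the 78 cells and 57.1 CPM in the comparison cells, a ratio of 139. A UMI of these genes was found in 77 of the 78 cells, at 0 to 172 UMIs per cell with a median of 30.5, and 75 cells had at least 3. Of the 1989 comparison cells 31 had at least 3 UMIs (1.56%, exact interval 1.06% to 2.21%), and so had 28 of the 70 cells with 1 or 2 UMIs of the rule. The 31 cells held 33.2% of the UMIs of these genes in the comparison cells. Comparison cells reached 55 UMIs and 5.32% of the UMIs of a cell, where the 78 cells reached 172 UMIs and 4.89%. In the other lines 23 of 2323 N2a cells and 25 of 2037 NIH/3T3 cells had at least 3, so such counts are also found in cells without the rule genes. The summed level was 29.7 CPM in N2a and 61.9 CPM in NIH/3T3, beside 57.1 CPM in the mESC comparison cells. Reads that fit several such genes could have been assigned to the wrong copy or dropped, which was not tested.

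**Figure D3:**
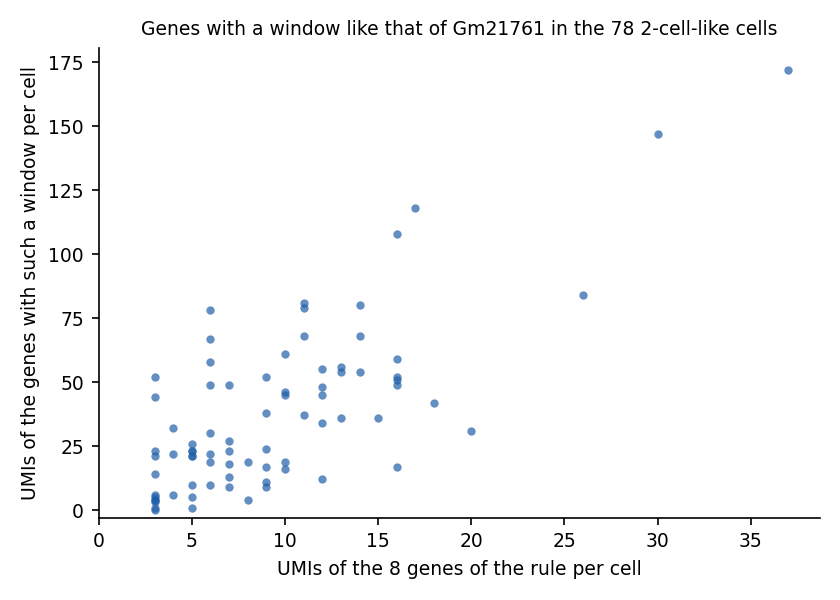
UMIs of the 135 genes with a window like that of Gm21761 (vertical axis) against UMIs of the 8 genes of the rule (horizontal axis) in each of the 78 2-cell-like cells, 1 point per cell. The vertical values run from 0 to 172 with a median of 30.5, and 1 cell has none.

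Short motifs were also counted in the windows. The DUX core was present in 21 of the 119 windows of genes higher by at least 16-fold (17.6%), in 0.591% of those of tested genes, and in 0.431% of all windows. Of these 21 genes, 18 had the window like that of Gm21761. The other 3 were Pramel19, Pramel31, and Gm47631, named after their values were seen. The core was chosen after a longer DUX motif, searched as planned, had been found in 0 of the 119 windows and 0.0243% of all. TGCACAC, a sequence bound by ZSCAN4, was in 5.88% of the 119 windows, 3.89% of those of tested genes, and 4.59% of all. TATAAA was in 14.3%, 8.09%, and 13.4%. All motifs were searched on both strands, and a match is no proof of binding.

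The list of other 2-cell-stage genes described the same cells with genes outside the rule. Of its 104 genes 73 were listed and 21 measured at 50 CPM or more. Of these, 20 were past 2-fold higher and 0 lower, with a median log2 ratio of 7.04, where 7.51% and 5.63% of all tested genes were. All but Zfp809 and Calcoco2 stood under 4 CPM in the comparison cells and passed the level filter only through the 78 cells, so nothing is read from this count. Whatever the level, 57 of the 73 listed genes were higher and 3 lower in CPM. No share over all genes stands beside these counts, and 1 UMI is worth far more in the smaller group. Nothing is read from them either. Besides the Eif1ad and Zscan4 copies, the list included P4ha2, a subunit of prolyl hydroxylase, with 114 UMIs against 31, and Usp17le, a deubiquitinase gene, at 176.5 against 0.70 CPM. Ubtfl1, a copy of the nucleolar factor gene Ubtf, stood at 152.4 against 0.35 CPM. Zfp809, a zinc finger protein that silences retroviruses, was already present in the comparison cells, at 148.3 CPM, and stood at 502.7 CPM in the 78 cells. Calcoco2, an autophagy receptor, was the 1 measured gene not past 2-fold, at 516.0 against 416.0 CPM. Several of these genes are copies of genes in the rule, so they are not independent of it. Of the 121 genes higher by at least 16-fold, 84 were in neither this list nor the set with the window.

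Of 35 measured regulators of the 2-cell-like state, 32 were within 2-fold. Of all 35, 2 were past 2-fold higher and 1 lower, where 7.51% and 5.63% of all tested genes were, with a median log2 ratio of -0.09. Nelfa, a subunit of the negative elongation factor, stood at 1214 against 56.3 CPM, a ratio of 21.5 with a counting interval of 19.1 to 24.3. It was seen in 66 of the 78 cells, at up to 24 UMIs, and its log2 ratio was 4.41, with 3.76 in cells with at least 4000 UMIs and 5.07 when levels were averaged over cells. Dppa2, which activates Dux, stood at 1096 against 322.6 CPM. Dppa4 of the same list stood lower, at 50.8 against 86.6 CPM on 19 UMIs, and was within 2-fold. Dux itself had no entry under that name among the counted genes, so its level is not known here. Max, the partner of MYC proteins, was lower, at 37.4 against 80.5 CPM on 14 UMIs. Of the repressors in the list, Trim28 stood at 446.5 and 518.7 CPM, Setdb1 at 197.9 and 196.1 CPM, and Kdm1a at 294.1 and 255.5 CPM. Mga stood at 251.3 against 449.9 CPM, Rcor1 at 66.8 against 117.6 CPM, Hira at 90.9 against 150.8 CPM, and Atrx at 615.0 against 904.1 CPM. Also within 2-fold, Rif1 was higher at 1305 against 1099 CPM. So were Hdac2 (163.1 against 123.7 CPM) and Zmym2 (171.1 against 133.2 CPM). Ncl (nucleolin), the most abundant of the 35, stood at 2481 and 2844 CPM.

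Naive pluripotency is the state that the inhibitors and leukemia inhibitory factor are used to maintain. Of 28 measured genes of its list, 7 were past 2-fold lower, where 5.63% of all tested genes were, and 1 was higher, with a median log2 ratio of -0.49 beside -0.19 over all tested genes. The lower genes were Mybl2, Tcf7l1, Tdh, Esrrb, Tet2, Fgf4, and L1td1. Mybl2, a MYB family transcription factor of dividing cells, stood at 80.2 against 218.7 CPM. Its log2 ratio was -1.44, and -2.23 when levels were averaged over cells. Tcf7l1, a transcription factor of the Wnt pathway, stood at 229.9 against 619.8 CPM. The nuclear receptor Esrrb stood at 163.1 against 364.0 CPM and was seen in 26 of the 78 cells and 75.5% of the comparison cells. Zfp42 (REX1) was at 844.9 against 1333 CPM and Dppa5a at 1281 against 1841 CPM, neither past 2-fold. Among the genes close to equal were Nanog, Klf4 (208.6 and 229.1 CPM), and Sall4 (248.7 and 259.6 CPM). The exception in the other direction was Fbxo15, an F-box protein, at 2005 against 346.1 CPM, a ratio of 5.79 with a counting interval of 5.35 to 6.27. It was seen in 71 of the 78 cells, with a median of 6 UMIs and at most 48.

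Among enzymes of DNA methylation, 2 of 6 measured genes were lower and 0 higher, where 5.63% and 7.51% of all tested genes were, with a median log2 ratio of -0.30. They were Tet1 at 564.2 against 1217 CPM and Tet2 at 278.1 against 615.4 CPM, which oxidize 5-methylcytosine. In cells with at least 4000 UMIs both had a log2 ratio of -0.96, just short of 2-fold. Dnmt3a stood at 77.5 and 75.1 CPM.

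**Figure D4:**
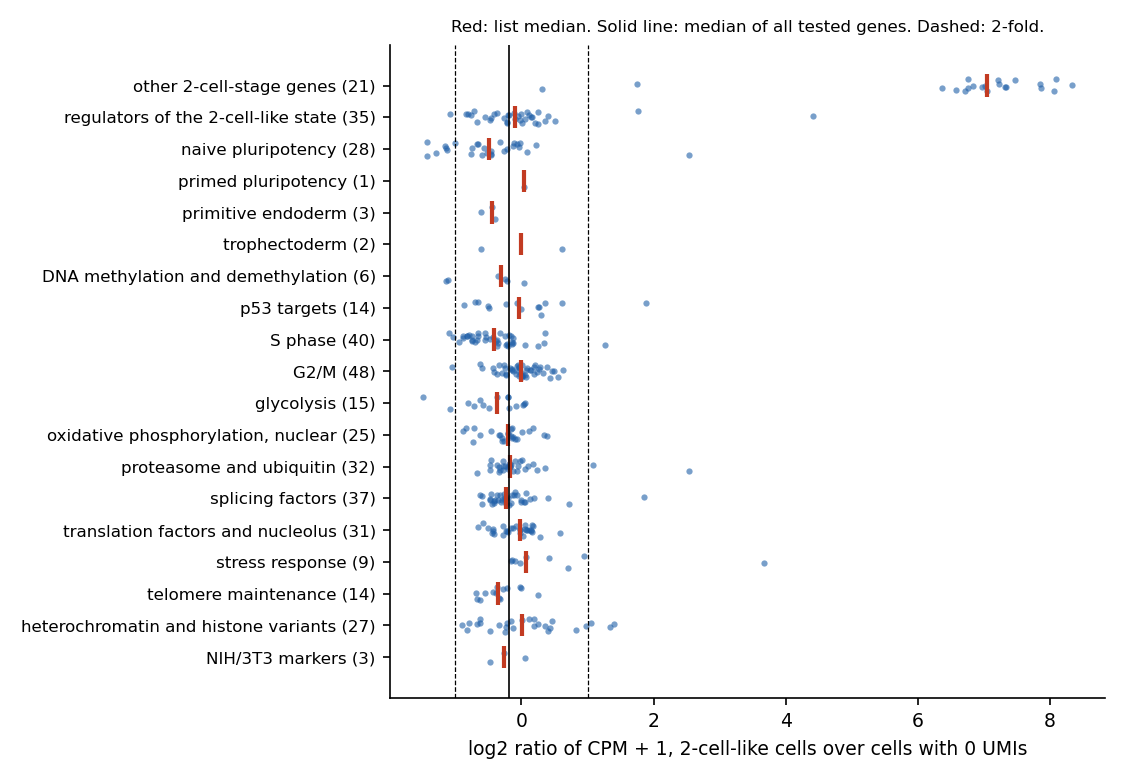
Log2 ratio of CPM + 1 between the 2-cell-like cells and the cells with 0 UMIs (horizontal axis) for the measured genes of each list (vertical axis, number of genes in brackets), 1 point per gene, with a red line at the list median, a solid line at the median of all tested genes, and dashed lines at 2-fold. The list of other 2-cell-stage genes has its median at 7.04, and the medians of the remaining lists lie between -0.49 and 0.07.

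The cell cycle lists held shares of genes past 2-fold at or below those of all tested genes (7.51% higher and 5.63% lower). Of 40 measured S phase genes, 2 were past 2-fold lower and 1 higher, with a median log2 ratio of -0.41. Wdr76 stood at 74.9 against 160.3 CPM and Gmnn, which encodes the replication licensing inhibitor geminin, at 77.5 against 160.2 CPM. Ccne2 (cyclin E2) was higher, at 77.5 against 31.7 CPM. Of 48 measured G2/M genes, 1 was past 2-fold lower and 0 higher, with a median of -0.01. Nasp, a histone chaperone and the most abundant S phase gene, stood at 885.0 and 969.6 CPM. Hmgb2, the most abundant G2/M gene, stood at 1933 and 1437 CPM, and Tmpo, a nuclear lamina protein, at 101.6 against 211.5 CPM. Tmpo was not past 2-fold in cells with at least 4000 UMIs or without the 5% of cells with the most UMIs. Neither was Wdr76 with comparison cells of matched depth, nor Ccne2 when levels were averaged over cells.

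The lists of RNA and protein handling also held no larger share of higher genes than the 7.51% of all tested genes. Of 37 measured splicing factors, 1 was higher and 0 lower, with a median of -0.23. It was Rbm25, at 2631 against 725.9 CPM, a ratio of 3.62 with a counting interval of 3.39 to 3.87, seen in 75 of the 78 cells. Of 32 measured genes of the proteasome and ubiquitin, 2 were higher, Fbxo15 among them, and 0 lower, with a median of -0.18. Of 31 measured translation and nucleolus genes, 0 were past 2-fold in either direction, with a median of -0.02. Eif2s2, the most abundant, stood at 3797 and 3728 CPM.

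For the stress and chromatin lists the counts are small and are given beside the same 7.51% higher and 5.63% lower. Of 9 measured stress genes, 1 was higher and 0 lower, with a median of 0.07. Jun, a subunit of AP-1, stood at 123.0 against 8.69 CPM, a ratio of 14.1 with a counting interval of 9.75 to 20.3, and was seen in 25 of the 78 cells and 4.12% of the comparison cells. Hsp90aa1, the most abundant stress gene, stood at 2773 and 2824 CPM. Of 14 measured p53 targets, 1 was higher, the kinase gene Plk2 at 80.2 against 21.0 CPM, and 0 lower, with a median of -0.03. Of 27 measured genes of heterochromatin and histone variants, 3 were higher and 0 lower, with a median of 0.01. These were the linker histone genes H1f0 (136.4 against 51.0 CPM) and H1f4 (171.1 against 81.8 CPM) and the demethylase gene Kdm4b (82.9 against 32.1 CPM).

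Metabolic and lineage lists are given beside the same shares of all tested genes, 7.51% higher and 5.63% lower. Of 15 measured glycolysis genes, 2 were lower, Ldhb at 26.7 against 77.0 CPM on 10 UMIs and the glucose transporter Slc2a1 at 32.1 against 68.7 CPM on 12 UMIs, and 0 higher, with a median log2 ratio of -0.36. Among 25 genes of oxidative phosphorylation and 14 of telomere maintenance, 0 were past 2-fold, with medians of -0.20 and -0.36. Of the lineage lists, 0 of 1 primed pluripotency, 0 of 3 primitive endoderm, and 0 of 2 trophectoderm genes measured were past 2-fold in the summed levels. This depended on how levels were taken for Fgfr2 and Lrp2. Fgfr2 had a log2 ratio of 0.61, or 1.33 when levels were averaged over cells and 0.097 in cells with at least 4000 UMIs. Lrp2 had -0.61, or -1.23 averaged over cells and -1.61 with at least 5 UMIs of the 8 genes. Passing 2-fold also depended on the setting for Terf2 of the telomere list, at -0.69, or -1.17 averaged over cells. So it did for Uqcrc1 of oxidative phosphorylation, at -0.88, or -1.13 in cells with at least 4000 UMIs.

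The lowest ratios belonged to genes with few UMIs in the 78 cells, where the 248 lower genes had a median of 20 UMIs. Fut9, the fucosyltransferase that makes the Lewis x (SSEA-1) antigen, had 9 UMIs in 7 of the 78 cells and 1637 UMIs in 42.7% of the comparison cells. It stood at 24.1 against 142.3 CPM, 5.91-fold lower with a counting interval of 3.11 to 13.0. Exosc8, a subunit of the RNA exosome, had 8 UMIs and stood at 21.4 against 90.9 CPM, and Pcsk6, a proprotein convertase, had 15 UMIs and stood at 40.1 against 164.6 CPM. Mapk1ip1l was at 64.2 against 228.8 CPM, on 24 UMIs, and the transcription factor gene Glis3 at 45.5 against 161.9 CPM, on 17 UMIs. The other 10 of the 15 lowest were Rapgef1, Kirrel, Ifitm3, Gpr107, Gm2381, Tacc2, Wwc1, Xpot, Slc20a1, and A630089N07Rik, with 9 to 13 UMIs each and 24.1 to 34.8 CPM in the 78 cells against 80.4 to 131.0 CPM.

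The cells were also split by their UMIs of the 8 genes, which is a description, since the rule used these UMIs and most of the genes shown were chosen for differing between the same cells. The 20 2-cell-stage genes past 2-fold summed to 166.9 CPM in cells with 0 UMIs, 781.0 CPM in the 70 cells with 1 or 2, 4620 CPM in the 45 cells with 3 to 9, and 10614 CPM in the 33 cells with 10 or more. Of the 166.9 CPM in the first class, 148.3 CPM were Zfp809. Gm21761 stood at 1.13, 53.7, 668.8, and 1759 CPM in these classes. Zfp42 stood at 1333 and 1329 CPM in cells with 0 and with 1 or 2 UMIs, at 981.8 CPM with 3 to 9, and at 668.0 CPM with 10 or more. Esrrb stood at 364.0, 326.7, 189.7, and 128.7 CPM. Nanog did not follow this order, with 565.0, 787.7, 597.6, and 422.9 CPM. The median depth of the classes was 4800, 5994, 4235, and 2872 UMIs, so the cells with the most UMIs of the rule were also the shallowest, and the part of depth in these levels was not tested. The 12 cells just inside the threshold had 2354 CPM of the 20 genes and the 21 cells just outside 945.7 CPM.

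**Figure D5:**
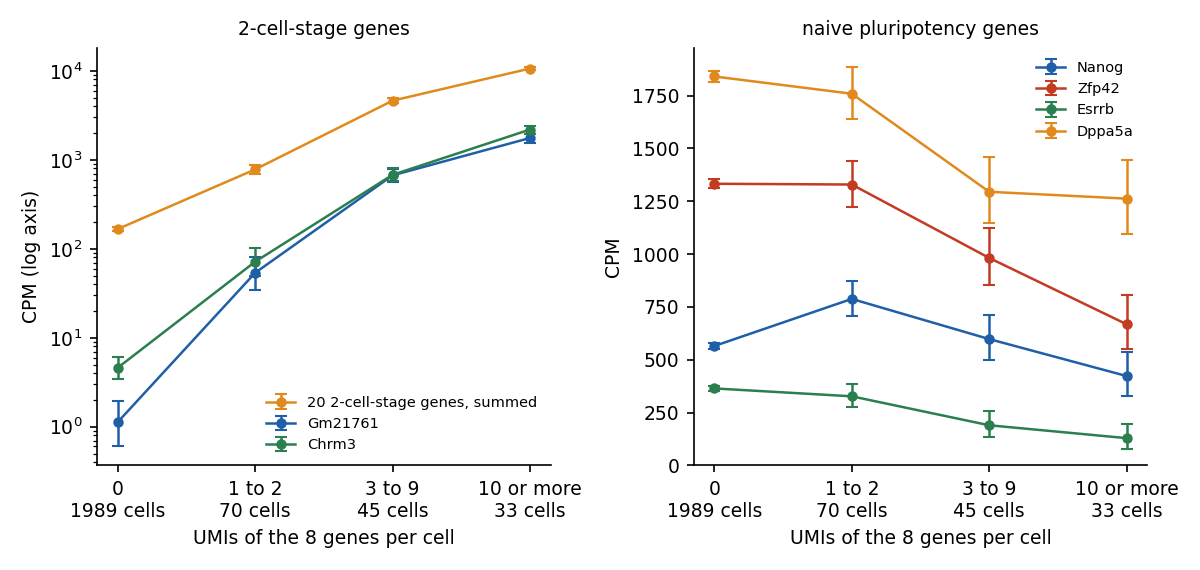
CPM with exact Poisson 95% intervals (vertical axes, logarithmic on the left and linear from 0 on the right) in mESC cells with 0, 1 to 2, 3 to 9, and 10 or more UMIs of the 8 genes (horizontal axes, with the number of cells). The summed 2-cell-stage genes, Gm21761, and Chrm3 are higher in each class than in the class before it, while Zfp42 and Esrrb are lowest in the 33 cells with 10 or more UMIs.

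Single cells showed the same spread. The 20 2-cell-stage genes gave 1 to 174 UMIs in each of the 78 cells, with a median of 28.5, and 76 cells had at least 3. In the comparison cells the median was 0 and the highest value 20. Of the 1989 comparison cells, 984 had at least 1 UMI and 218 had at least 3, so the groups overlapped. The naive pluripotency list made up 0.189% to 2.32% of the UMIs of the 78 cells with a median of 0.918%, and 0.178% to 2.36% with a median of 1.24% in the comparison cells. The groups overlapped over nearly the whole range. By the genes that selected them, the 61 cells with both kinds of UMIs had 8275 CPM of the 20 genes, the 7 cells without Zscan4 UMIs 7452 CPM, and the 10 cells with Zscan4 UMIs only 2240 CPM.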

How the data were processed

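RNA was measured in single cells of 1 CapSeq library. The authors converted the data to FASTQ files, split reads by the first barcode, trimmed the template switching oligo, and counted UMIs with STARsolo, using GENCODE M30 annotation of the GRCm39 genome. Deposited values are unnormalized counts of UMIs for each gene and barcode, unfiltered. The feature mode and the handling of reads that map to several genes are not given in the sources used here. The members and gene lists were chosen with earlier results of these data known.

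From the deposited counts, UMIs were summed over the cells of each group and scaled to CPM. The total was 13875356 UMIs in the mESC matrix. Log2 ratios used a pseudocount of 1 CPM, and genes with a mean group level under 50 CPM were left out of counts. Intervals at the 95% level are exact Poisson for levels, exact binomial for shares, and exact conditional binomial for ratios, and a count of 0 was taken to allow 3 UMIs. All cover counting error only. No doublet caller was run, and the 5% of cells with the most UMIs were left out as an alternative. Genes were named by a rule: the 8 genes, the 15 largest ratios (seen in at least 8 of the 78 cells) and the 15 smallest, and from each list the most abundant and both extreme genes. Other genes of the lists were named after their values were seen, and the levels of some genes are not reported here, among them list genes within 2-fold. Positions and windows for 32953 of the 33565 gene identifiers were taken from the GENCODE M39 annotation of the same genome, and windows were aligned with blastn 2.17.0. Counts were handled with pandas 2.3.3, scipy 1.17.1, and numpy 2.4.6 in Python 3.11.15, and TMM factors came from edgeR 4.0.16 (R 4.3.3). Steps were tested on simulated data. Alternatives changed the threshold of the rule, the cells, the scaling, the pseudocount, and the level filter.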

Additional observations from a re-analysis of the deposited data

How the results depend on the processing

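The number of 2-cell-like cells stayed between 63 and 99 under the 15 alternatives that kept the 8 genes or 7 of them, with 64 cells when Zscan4d was left out of the rule. A rule of at least 3 UMIs of the genes with a window like that of Gm21761, added after seeing the data, took 134 cells. The number of genes past 2-fold higher was 604 at a minimum of 20 CPM and 170 at 100 CPM. The number of genes past 2-fold lower was 601 at 20 CPM, 112 at 100 CPM, 600 with levels averaged over cells, and 142 with at least 2 UMIs of the 8 genes. Under the other alternatives both counts stayed within 1.5 times, and with a mitochondrial share of at most 5% (added after seeing the data) 322 genes were higher and 191 lower. The number of genes higher by at least 16-fold, 121, was 193 at 20 CPM, 68 at 100 CPM, and 77 with a pseudocount of 10. Of 44 named genes past 2-fold, 41 stayed past it in cells with at least 4000 UMIs and 43 or 44 under each of the other 5 alternatives computed for them. None of these alternatives changed the pseudocount. Of 31 named genes within 2-fold, 7 passed it under at least 1 of these 6 alternatives (Lrp2, Fgfr2, Zmat3, Uqcrc1, Eftud2, Terf2, and Smarcad1). The lower genes rest on a median of 20 UMIs in 78 cells. No paired analysis was possible because all lines were read out in 1 library without replicates.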
